A study of Mus musculus with 2 samples.

Results

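The 39 genes described here encode the enzymes and transporters of glycolysis and a set of transcripts that cells make when oxygen is short. They were chosen by name, as a list, with earlier results of these data known. Their symbols were looked up among the 32285 features counted in each library. The glycolysis arm has 23 genes, from the glucose transporters to the lactate exporters, and the hypoxia arm has 16. Every gene of the list had at least 1 UMI, a unique molecular identifier that marks a captured RNA molecule. The symbol *Aldoa* names 2 features, of which the minor holds 1 UMI in the lean library and 0 in the obese library, and they were summed. *Eno1* and *Eno1b* were also summed, for the reason given with enolase, which leaves 22 glycolysis entries.

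CD8+ T cells were sorted from B16 F0 melanoma tumors transplanted into male C57BL/6J mice and sequenced as droplet libraries. The lean library came from mice fed normal chow (NC), and the obese library from mice fed a western diet (WD). All mice carried the tumor and were 16 weeks old per the labels. How many mice each library pooled is not stated in the sources used here, and there is 1 library per diet, so no comparison of the diets has a replicate check. Every interval below is a 95% interval for counting error and does not cover differences between mice.

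Glycolysis splits glucose into pyruvate and yields a little ATP without oxygen. Lactate dehydrogenase turns the pyruvate into lactate, which leaves the cell through monocarboxylate transporters and frees the NAD that the pathway needs. Activated and dividing T cells run this pathway hard even in oxygen, whereas resting naive and memory T cells rely more on mitochondria. Hif1a, the oxygen-regulated subunit of the transcription factor HIF-1, is marked for destruction by the prolyl hydroxylases Egln1 and Egln3 while oxygen is present. When oxygen is short, or when the T cell receptor is engaged, Hif1a accumulates and binds a short core motif near genes of glycolysis, mitophagy and vessel growth. Messenger RNA shows how much transcript was present, and says nothing of Hif1a protein or of flux through the pathway.

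The stretch of 250 bases before the transcription start was read for 36 of the 39 genes from RefSeq promoter sequences (GRCm38.p6), where the HIF core motif is written ACGTG or GCGTG and was searched on both strands. *Slc2a3*, *Eno1b* and *Bnip3l* were not matched. The promoters of *Bnip3*, *Ankrd37*, *Ldha* and *Hk2* are shown because these genes carry the results below, as the member furthest lower in the obese library, another HIF target that was lower, the main lactate dehydrogenase gene and the hexokinase gene that went the other way. Capitals mark every match, with CACGT and CACGC as the reverse strand forms. A CACGTG holds the core on both strands and is also the E-box that Myc and related factors bind.
*Bnip3*, chr7:138909507-138909756, minus strand: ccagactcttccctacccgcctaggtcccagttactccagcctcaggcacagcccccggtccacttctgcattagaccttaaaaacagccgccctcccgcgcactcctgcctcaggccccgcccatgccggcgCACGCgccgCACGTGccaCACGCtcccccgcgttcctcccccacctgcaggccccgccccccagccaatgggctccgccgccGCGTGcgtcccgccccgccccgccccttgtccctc
*Ankrd37*, chr8:45999851-46000100, minus strand: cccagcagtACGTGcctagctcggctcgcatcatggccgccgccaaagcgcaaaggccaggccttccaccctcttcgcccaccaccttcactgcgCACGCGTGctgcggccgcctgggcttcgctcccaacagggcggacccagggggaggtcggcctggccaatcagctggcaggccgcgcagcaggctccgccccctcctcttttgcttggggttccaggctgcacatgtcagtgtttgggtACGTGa
*Ldha*, chr7:46845554-46845803, plus strand: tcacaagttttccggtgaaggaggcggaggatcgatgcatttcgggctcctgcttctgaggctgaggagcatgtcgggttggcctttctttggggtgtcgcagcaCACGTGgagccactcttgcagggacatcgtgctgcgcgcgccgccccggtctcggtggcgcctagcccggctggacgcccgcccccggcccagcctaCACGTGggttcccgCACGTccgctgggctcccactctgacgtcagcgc
*Hk2*, chr6:82774455-82774704, minus strand: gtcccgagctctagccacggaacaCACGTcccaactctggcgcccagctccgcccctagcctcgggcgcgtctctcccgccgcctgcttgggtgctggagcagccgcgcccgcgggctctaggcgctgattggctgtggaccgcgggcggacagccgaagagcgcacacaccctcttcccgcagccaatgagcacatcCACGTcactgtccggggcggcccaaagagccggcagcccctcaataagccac
Counting strands separately, *Bnip3* and *Ldha* each held 5 matches, *Ankrd37* 4 and *Hk2* 2. *Ldha* had 2 E-boxes, which account for 4 of its matches, and *Bnip3* had 1. Over all 27025 promoters of the same length, 38.6% held a core on either strand. Of the glycolysis genes, 16 of 21 did (76.2%), and of the hypoxia genes 12 of 15 (80.0%). With ACGTG alone the shares were 42.9% and 53.3%, against 16.6% of all promoters. No match lay in the windows of *Hk1*, *Gpi1*, *Aldoa*, *Tpi1*, *Pkm*, *Vegfa*, *Mif* and *Mxi1*, which says only that these letters are not in this stretch. These shares are a description, and base composition was not matched.

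After cells outside the study's stated limits were left out, 2456 lean cells with 27815785 UMIs and 2289 obese cells with 28705830 UMIs remained. The median cell held 7958 UMIs in the lean library and 9103 UMIs in the obese library, and 2 cell barcodes occurred in both. Levels are given as CPM, the UMIs of a gene per 1000000 UMIs of the same cells. Since a UMI tags a molecule at its 3' end, CPM needs no division by transcript length, although capture may still differ from gene to gene. T cell markers were at 6027 CPM in the lean and 5304 CPM in the obese library, while melanoma markers summed to 1.22 and 1.46 CPM and myeloid markers to 23.4 and 22.2 CPM. The 7 dendritic cell markers summed to 447 and 461 CPM, with 5 of 7 higher at any fold in the obese library. The share of all features higher in that sense was not computed. In cluster 5, described below, these markers were at 7050 CPM in the 8 lean and 17238 CPM in the 15 obese cells. With clusters 4 and 5 left out the glycolysis median given next was −0.31 and the hypoxia median −0.24.

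Together the glycolysis genes took 0.668% of all UMIs in the lean library and 0.540% in the obese library, a log2 ratio of obese over lean of −0.31 (−0.32 to −0.30). The hypoxia genes took 0.174% and 0.150%, with a log2 ratio of −0.21 (−0.23 to −0.19). Both arms were thus lower in the obese library. The sums are ruled by a few abundant genes, so the members are described singly below, in the order of the pathway. A member was counted as lower or higher if its level differed by at least 1.2-fold, a rule of size and not a test. Of all 7060 features with at least 10 CPM in either library, 6.01% were lower and 11.9% higher by this rule. Of the 19 glycolysis entries at that level, 12 were lower and 1 was higher, and their median log2 ratio was −0.31 against 0.035 over all features. Of the 13 hypoxia genes at that level, 5 were lower and 1 was higher, and the median was −0.23. Because the members were chosen with earlier results of these data known, these counts are a description. At 1.5-fold, 2 glycolysis entries (*Aldoc* and *Slc16a3*) and 2 hypoxia genes (*Bnip3* and *P4ha1*) were lower, beside 1.32% of all features, and 0 of either arm were higher, beside 1.6%. *Pfkfb3* and *Aldoc* had at least 10 CPM in the lean library alone. Of the 17 glycolysis entries that had it in both libraries, 10 were lower by 1.2-fold and 1 by 1.5-fold. The share of all features was not computed for that filter. *Pfkm*, *Pfkfb4*, *Ldhb*, *Egln3*, *Ak4* and *Vegfa* stayed under 10 CPM in both libraries.

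Glucose enters T cells through Glut1, encoded by *Slc2a1*, and the high-affinity Glut3, encoded by *Slc2a3*. *Slc2a3* was at 55.0 CPM in the lean and 44.3 CPM in the obese library, a log2 ratio of −0.31 (−0.42 to −0.20). *Slc2a1* was at 20.8 and 18.2 CPM, a log2 ratio of −0.19 (−0.37 to −0.02). Hexokinase then traps glucose as glucose 6-phosphate. *Hk1*, the housekeeping form, was at 56.5 CPM in the lean and 51.5 CPM in the obese library, while *Hk2*, the inducible form, was at 44.2 and 52.4 CPM. The log2 ratio of *Hk2* was 0.24 (0.13 to 0.35), the reverse of most of the pathway, although it stayed under 1.2-fold. Since *Hk1* was at −0.13 (−0.24 to −0.03), the hexokinase step as a whole was at 101 CPM in the lean and 104 CPM in the obese library, and its log2 ratio of 0.044 (−0.03 to 0.12) spans no difference. *Hk2* gave −0.16 when cells were thinned to 1000 UMIs, and the cause of this turn was not tested.

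*Gpi1*, the isomerase of the next step, was at 312 CPM in the lean and 262 CPM in the obese library, a log2 ratio of −0.25 (−0.30 to −0.21). Phosphofructokinase, the committed step, was mostly *Pfkp*, the platelet form, at 134 CPM in lean and 111 CPM in obese cells, and its log2 ratio was −0.27 (−0.34 to −0.20). The liver form *Pfkl* was at 32.2 and 30.8 CPM, with an interval that holds 0 (−0.20 to 0.07). The muscle form *Pfkm* had 80 and 71 UMIs. *Pfkfb3*, which makes the activator fructose 2,6-bisphosphate, was at 13.4 CPM in the lean and 9.65 CPM in the obese library, a log2 ratio of −0.47 (−0.70 to −0.24). Its relative *Pfkfb4* had 58 and 79 UMIs, too few to give a direction. All members of this stretch that passed 10 CPM had ratios below 0.

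Aldolase was almost wholly *Aldoa*, which held 98.8% of the aldolase UMIs in the lean library and 98.9% in the obese library. *Aldoa* was at 918 CPM in the lean and 635 CPM in the obese library, a log2 ratio of −0.53 (−0.56 to −0.50). The minor *Aldoc* was at 11.2 and 7.28 CPM, a log2 ratio of −0.62 (−0.88 to −0.37). *Tpi1*, the triosephosphate isomerase, was at 341 and 252 CPM, a log2 ratio of −0.44 (−0.48 to −0.39). Splitting and isomerizing the sugar were thus among the steps with the widest gap between the libraries. *Gapdh*, the oxidizing step and the gene with the most UMIs on the list, was at 2286 CPM in the lean and 1999.8 CPM in the obese library, a smaller log2 ratio of −0.19 (−0.21 to −0.18). The ATP-making *Pgk1* was at 399.8 and 323 CPM, a log2 ratio of −0.31 (−0.35 to −0.27). *Pgam1*, the mutase after it, was at 289 and 229 CPM, a log2 ratio of −0.34 (−0.38 to −0.29).

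Enolase requires care, because *Eno1b* is annotated as a retrogene, a copy of the *Eno1* transcript pasted back into the genome. Their transcripts were aligned over 1652 bases with 9 mismatches, an identity of 99.46%, and the last 300 aligned bases, where a 3' library reads, held 1 mismatch. Reads of both genes can therefore hardly be told apart. *Eno1* was counted with 6060 UMIs in the lean and 2615 UMIs in the obese library, while *Eno1b* was counted with 2396 and 3399 UMIs. The opposite directions of the pair are uncertain for that reason. Summed, enolase was at 304 CPM in the lean and 209.5 CPM in the obese library, a log2 ratio of −0.54 (−0.59 to −0.49), where *Eno1* alone gives −1.26. How reads that fit both genes were handled was not examined. The sum and its interval therefore cover only UMIs counted for either gene, and may miss others. *Pkm*, the pyruvate kinase gene, was at 526 and 426 CPM, a log2 ratio of −0.31 (−0.34 to −0.27).

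At the end of the pathway, *Ldha*, the lactate dehydrogenase subunit that favors lactate, was at 886 CPM in the lean and 695 CPM in the obese library, a log2 ratio of −0.35 (−0.38 to −0.32). *Ldhb*, which favors the reverse reaction, was scarce, at 5.21 and 8.08 CPM, and higher in the obese library with a log2 ratio of 0.63 (0.33 to 0.94). *Ldha* nevertheless held 99.4% and 98.9% of the UMIs of the pair. The lactate exporter gene *Slc16a3* (Mct4), typical of glycolytic cells, was at 24.8 CPM in the lean and 16.3 CPM in the obese library, a log2 ratio of −0.60 (−0.78 to −0.43). *Slc16a1* (Mct1), which carries lactate either way, was at 12.9 and 15.7 CPM, a log2 ratio of 0.28 (0.08 to 0.49), and it was the glycolysis entry counted as higher. Over all cells the transport step thus differed in its makeup, from 65.7% *Slc16a3* (62.7% to 68.6%) in the lean library to 50.9% (47.6% to 54.1%) in the obese library. This share also differs by cell state, and the mix of states differs between the libraries, as given below. The part of that mix was not tested.

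**Figure D1:**
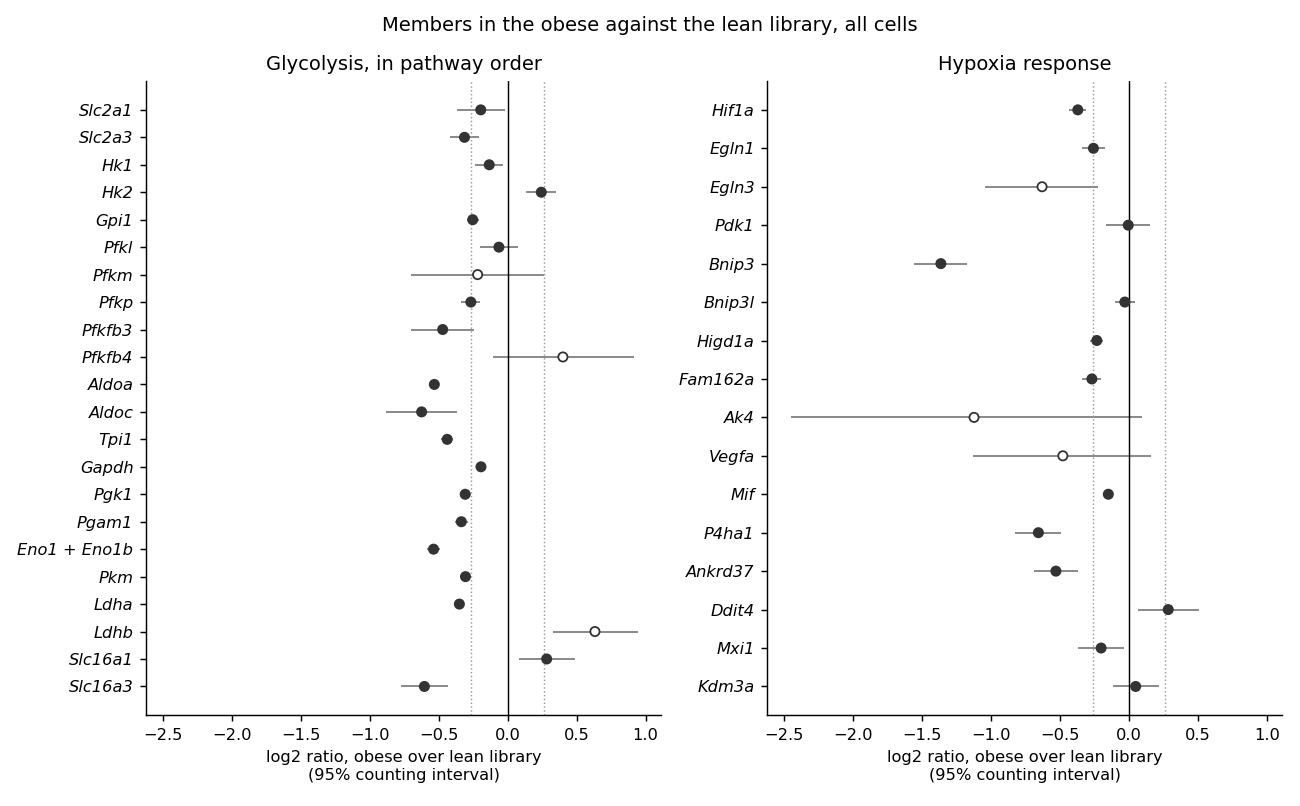
Log2 ratio of the obese over the lean library over all cells (x axis) for the 22 glycolysis entries in pathway order (left) and the 16 hypoxia genes (right), with 95% counting intervals as lines, dotted lines at 1.2-fold and open points for members under 10 CPM in both libraries. Of the 22 glycolysis points 18 lie left of 0, with Hk2 and Slc16a1 and the open points of Pfkfb4 and Ldhb to the right of it, and Bnip3 lies furthest left of the filled points at −1.36.

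Among the oxygen sensors, *Hif1a* itself was at 176 CPM in the lean and 136 CPM in the obese library, a log2 ratio of −0.37 (−0.43 to −0.31). The hydroxylase gene *Egln1* was at 90.2 and 75.4 CPM, a log2 ratio of −0.26 (−0.34 to −0.17). *Egln3*, itself a HIF target, had 129 and 86 UMIs. By the 1.2-fold rule *Hif1a* was lower, *Egln1* fell just short of it and *Egln3* was under 10 CPM.

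The targets that act on mitochondria were divided. *Bnip3*, a mitophagy receptor of the outer mitochondrial membrane, was at 27.8 CPM (25.9 to 29.8) in the lean and 10.8 CPM (9.63 to 12.1) in the obese library. Its log2 ratio of −1.36 (−1.56 to −1.17) was the lowest of the members above 10 CPM. Its paralog *Bnip3l* (Nix) was at 113 and 111 CPM, a log2 ratio of −0.03 (−0.10 to 0.04), so that the *Bnip3* share of the pair was 19.7% in the lean library and 8.87% in the obese library. *Pdk1*, the kinase that closes pyruvate dehydrogenase, was at 23.2 and 23.1 CPM. *Higd1a*, a respiratory chain survival factor, was at 265 and 225 CPM with a log2 ratio of −0.23 (−0.28 to −0.19), and *Fam162a*, which encodes a mitochondrial membrane protein, at 132 and 109 CPM with −0.27 (−0.34 to −0.20). The mitochondrial adenylate kinase gene *Ak4* had 19 and 9 UMIs, too few for a direction. *Bnip3* was thus far from the other mitochondrial targets.

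Of the secreted factors, *Mif*, a cytokine made by many cells, was at 794 CPM in the lean and 715 CPM in the obese library, a log2 ratio of −0.15 (−0.18 to −0.12). *Vegfa*, the vessel growth factor, had 50 and 37 UMIs. *P4ha1*, a collagen prolyl hydroxylase subunit, was at 26.6 and 16.9 CPM, a log2 ratio of −0.66 (−0.83 to −0.49). *Ankrd37*, a small ankyrin repeat protein gene, was at 28.2 and 19.5 CPM, a log2 ratio of −0.53 (−0.69 to −0.37). After *Bnip3*, these were the hypoxia genes above 10 CPM with the lowest ratios. *Ddit4* (Redd1), an inhibitor of mTORC1, was at 11.1 CPM in the lean and 13.5 CPM in the obese library and was the hypoxia gene counted as higher, at 0.28 (0.06 to 0.50). The Myc antagonist *Mxi1* was at 22.0 and 19.1 CPM, a log2 ratio of −0.20 (−0.37 to −0.03), and the histone demethylase gene *Kdm3a* at 20.4 and 21.1 CPM. The direction of *Mxi1* turned with a mean over cells (0.0095), with thinning to 1000 UMIs (0.14) and with equal weight for the cell state clusters (0.097).

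To ask where in the T cell population these genes are used, cells of both libraries were clustered on variable genes from which all 39 members had been removed. Cluster 2 was naive- or memory-like, with *Lef1* and *Satb1* among its leading genes, and held 572 lean and 420 obese cells. Cluster 0 was interferon-stimulated-like, led by *Ifit3b*, *Ifit3* and *Ifit1* beside *Gzma*, and held 508 and 780 cells. Cluster 3 was effector-like, led by *Gzmd*, *Gzme*, *Gzmf* and *Penk*, and held 610 and 308 cells. Cluster 1 was proliferating-like, led by *Pclaf*, *Birc5* and *Cdk1*, and held 480 and 578 cells. The libraries thus differed in their mix, with effector-like cells at 24.8% of the lean and 13.5% of the obese cells. Cluster 4, with 278 and 188 cells of a median 2505.5 and 2969 UMIs, stayed unnamed, and so did the 23 cells of cluster 5. The clusters come from the same cells as the values, so differences between clusters are given as a description.

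Glycolysis genes were most abundant in the proliferating-like and effector-like clusters. Their share of UMIs in the lean library was 0.207% in cluster 2, 0.314% in cluster 0, 0.815% in cluster 3 and 0.846% in cluster 1. In the obese library the shares were 0.184%, 0.281%, 0.648% and 0.699%. The order of these 4 clusters was the same in both libraries. In the unnamed cluster 4 the share was 0.441% in the lean and 0.434% in the obese library. Cluster 1 exceeded cluster 2 by 4.09-fold in the lean and 3.81-fold in the obese library, and cluster 3 exceeded it by 3.94-fold and 3.53-fold. For cluster 0 the factor was 1.52 and 1.53. At least 2-fold higher in cluster 1 than in cluster 2, in both libraries, were 14 of the 19 glycolysis entries above 10 CPM, beside 20.3% of all features. For cluster 3 it was 15 of 19, beside 12.8%, and for cluster 0 it was 2 of 19, beside 6.23%. At least 2-fold lower than in cluster 2 were 0 of 19 in each, beside 4.65%, 2.63% and 0.657% of all features for clusters 1, 3 and 0.

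Single genes were spread more widely. *Tpi1* was at 51.4 CPM in cluster 2 and 464 CPM in cluster 1 of the lean library, and at 44.6 and 356 CPM in the obese library. *Slc16a3* had 2 UMIs in the lean and 3 UMIs in the obese cells of cluster 2, against 400 and 316 UMIs in cluster 1, where it reached 35.0 and 22.4 CPM. *Aldoc* had 3 and 2 UMIs in cluster 2 and was at 22.4 and 18.5 CPM in cluster 3. These genes were close to undetected in the naive- or memory-like cells. At the other end, *Gpi1* differed by 1.61-fold and 1.54-fold between clusters 1 and 2, *Slc16a1* by 1.84-fold and 1.51-fold, and *Ldhb*, under 10 CPM, by 0.665-fold and 0.999-fold. *Pfkfb4*, also under 10 CPM, was lower in cluster 1 than in cluster 2, at 0.344-fold and 0.345-fold from 14 against 16 UMIs in the lean and 29 against 21 UMIs in the obese library, with log2 intervals of −2.69 to −0.41 and −2.40 to −0.65. Which of clusters 1 and 3 was higher differed by gene. *Slc2a3* was at 82.5 and 68.1 CPM in cluster 3 and at 52.7 and 41.9 CPM in cluster 1. *Ldha* was higher in cluster 1, at 1217 and 968 CPM, than in cluster 3, at 936 and 681 CPM. In the unnamed cluster 4, *Slc2a1* and *Slc2a3* summed to 186 and 149 CPM, above the 109 and 88.7 CPM of cluster 3.

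The hypoxia genes split by state as well. At least 2-fold higher than in cluster 2, in both libraries, were 8 of 13 in cluster 1, beside 20.3% of all features, and 8 of 13 in cluster 3, beside 12.8%. *Bnip3* was at 57.3 CPM (52.3 to 62.8) in the lean and 22.7 CPM (18.6 to 27.4) in the obese cells of cluster 3, against 21.2 and 11.8 CPM in cluster 1 and 4.67 and 1.70 CPM in cluster 2. *P4ha1*, at 37.6 and 22.9 CPM, *Ankrd37*, at 45.5 and 28.2 CPM, and *Mxi1*, at 34.9 and 27.5 CPM, were also higher in cluster 3 than in cluster 1. *Mif* had the other order, with 1090 CPM in cluster 1 and 812 CPM in cluster 3 of the lean library. *Pdk1* ran against the rest. It was at 50.7 and 53.4 CPM in cluster 2, the naive- or memory-like cells, and at 14.4 and 15.3 CPM in cluster 1 and 19.0 and 15.1 CPM in cluster 3, at least 2-fold lower in both, as 1 of the 13 hypoxia genes beside 4.65% and 2.63% of all features. *Kdm3a* was likewise at 24.9 and 29.3 CPM in cluster 2 and at 14.7 and 14.8 CPM in cluster 1.

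**Figure D2:**
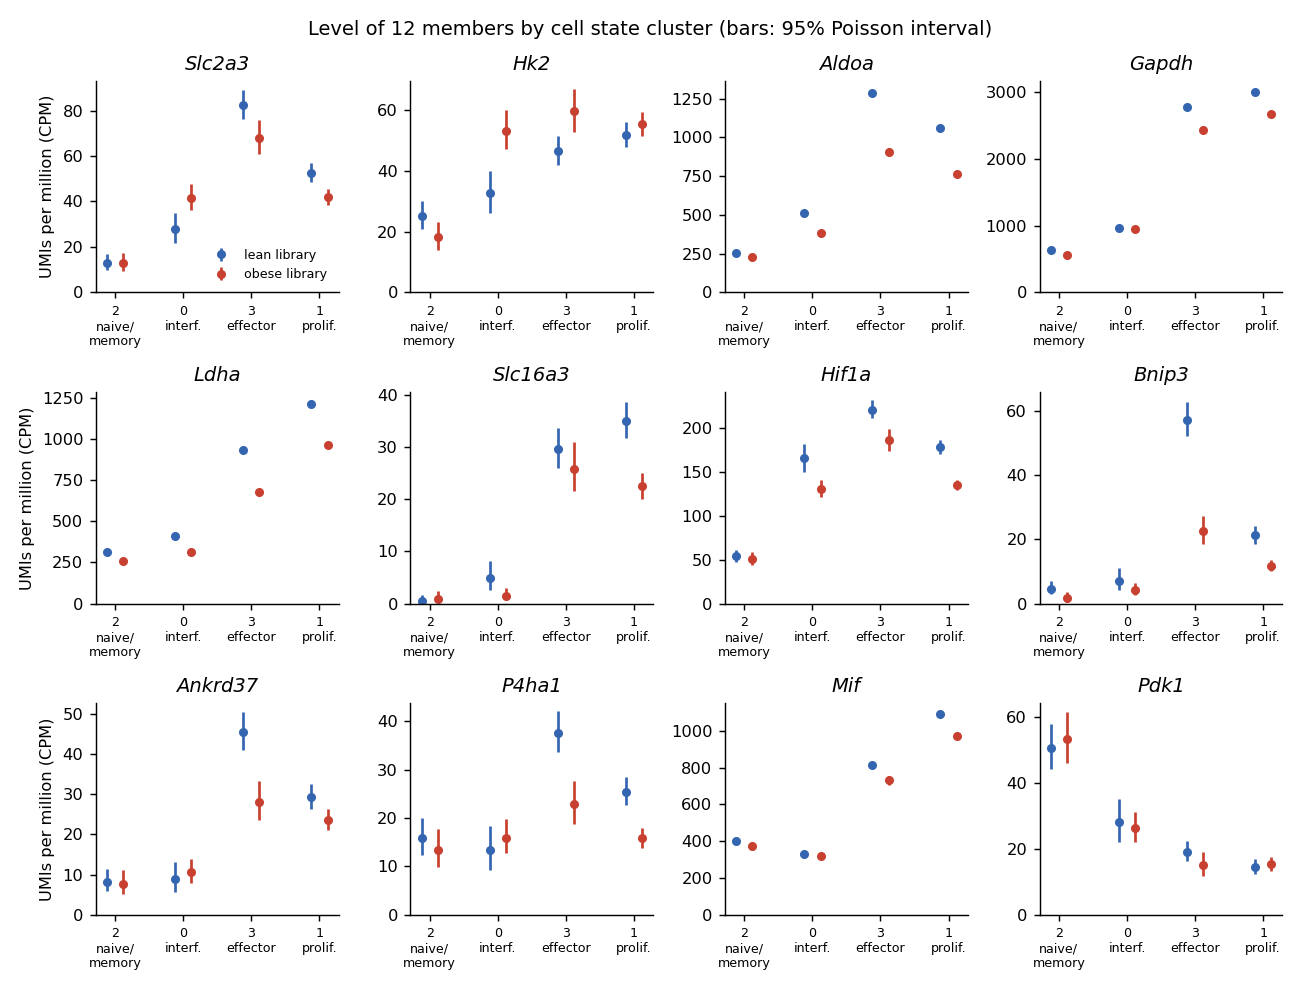
CPM (y axis, from 0) of 12 members in the naive- or memory-like, interferon-stimulated-like, effector-like and proliferating-like clusters (x axis), with 1 point for the lean and 1 for the obese library and 95% Poisson intervals. Bnip3, Ankrd37 and P4ha1 peak in the effector-like cluster of the lean library, Ldha and Mif in the proliferating-like cluster, and Pdk1 in naive- or memory-like cells.

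The gap between the libraries was then read within each cluster. In the proliferating-like cluster 1, 10 of 19 glycolysis entries were lower in the obese library and 0 higher, beside 7.74% of all features lower and 13.1% higher, with a median log2 ratio of −0.29. In the effector-like cluster 3, 11 were lower and 1 higher, beside 13.3% and 19.7%, with a median of −0.28 that was −0.09 with the finer clusters of resolution 0.8. In cluster 2, the naive- or memory-like cells, 5 were lower and 3 higher, beside 17.8% and 18.5%, with a median of −0.16. Of the 19 entries there, 6 had intervals below 0 and 0 above it. These counts were 7 and 2 in cluster 0, 13 and 0 in cluster 1, and 12 and 1 in cluster 3. The share of all features with such intervals was not computed. The largest ratio in cluster 2, 0.94 for *Slc16a3*, came from 2 and 3 UMIs. In the interferon-stimulated-like cluster 0, 6 were lower and 4 higher, beside 14.1% and 20%, with a median of −0.09 that ranged from −0.57 to 0.019 over the alternatives. Clusters 1 and 3 thus had the larger counts, whereas clusters 0 and 2 were nearer the background. The 10 CPM level was set over all cells and not within a cluster. Glycolysis UMIs numbered 9309 and 6470 in cluster 2 and 8497 and 14842 in cluster 0, against 66967 and 30836 in cluster 3. Counting error is therefore wider in clusters 0 and 2. For the hypoxia genes, 5 of 13 were lower and 1 higher in cluster 1, with a median of −0.18. In cluster 3, 7 were lower and 1 higher, with a median of −0.33. Its middle gene was *Pdk1*, whose interval holds 0 (−0.75 to 0.08). In cluster 0, 3 were lower and 2 higher, and in cluster 2, 3 were lower and 1 higher. No test of a difference between clusters was made. With equal weight for the 4 named clusters in both libraries, 7 glycolysis entries were lower and the median was −0.19. The share of all features was not computed with these weights. In the unnamed cluster 4, 6 glycolysis entries were lower and 2 higher, beside 27.4% and 28.4%, and 4 hypoxia genes were lower and 4 higher.

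*Aldoa* and *Ldha* were lower in the obese library in every named cluster. *Aldoa* was at 1284 CPM in the lean and 907 CPM in the obese cells of cluster 3, at 1060 and 762 CPM in cluster 1, and at 510.3 and 382 CPM in cluster 0. In cluster 2 it was at 252 and 230 CPM, a log2 ratio of −0.13 (−0.26 to 0.00096) with an interval that holds 0. The log2 ratio of *Ldha* ranged from −0.46 (−0.52 to −0.40) in cluster 3 to −0.26 (−0.38 to −0.14) in cluster 2. Summed enolase was lower in all 4 as well, between −0.66 (−0.76 to −0.56) in cluster 3 and −0.35 (−0.53 to −0.18) in cluster 0. *Hif1a* had log2 ratios of −0.40 (−0.49 to −0.31) in cluster 1, −0.34 (−0.51 to −0.16) in cluster 0 and −0.25 (−0.37 to −0.13) in cluster 3, and of −0.08 (−0.37 to 0.20) in cluster 2, where it was at 53.8 and 50.8 CPM.

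For *Pfkp* and *Slc16a3* the ratios are given by cluster, and whether they differ between clusters was not tested. *Pfkp* was at 159 CPM in the lean and 109 CPM in the obese cells of cluster 3, a log2 ratio of −0.54 (−0.69 to −0.39), but at 97.2 and 106 CPM in cluster 0. *Slc16a3* was lower in cluster 1, with a log2 ratio of −0.64 (−0.86 to −0.42), and at −0.19 (−0.52 to 0.12) in cluster 3. The intervals of these 2 ratios overlap. In cluster 0, 12 of 19 glycolysis entries had ratios below 0, where the median over all features was 0.015. The share of all features below 0 was not computed. By the 1.2-fold rule 4 entries were higher, beside 20% of all features. *Slc2a3* and *Hk2* were among those 4. There *Slc2a3* was at 27.7 CPM in the lean and 41.7 CPM in the obese library and *Hk2* at 32.5 and 53.2 CPM, log2 ratios of 0.59 (0.20 to 0.99) and 0.71 (0.36 to 1.07). In the same cells *Pfkfb3* was at 19.2 and 7.38 CPM, a log2 ratio of −1.38 (−2.02 to −0.75).

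*Bnip3* was lower in the obese library in each of clusters 1, 2 and 3, at −0.85 (−1.14 to −0.56), −1.45 (−3.05 to −0.10) and −1.34 (−1.65 to −1.03), and its interval in cluster 0 holds 0 (−1.63 to 0.27). The transcript was found in 25.9% of the lean and 13.96% of the obese cells of cluster 3, against 3.32% and 1.43% of cells in cluster 2, where it is near background. At an equal depth of 2000 UMIs the shares in cluster 3 were 7.21% (5.29% to 9.56%) and 1.95%. The 10 cells with the most *Bnip3* UMIs held 25.5% of them in the lean and 60.2% in the obese cells of this cluster. With 158 lean and 43 obese cells holding the transcript, these shares are not compared, and they show how few cells the obese value rests on. Cells of the lean effector-like cluster with a *Bnip3* UMI at 2000 UMIs, 44 in number, had more glycolysis UMIs than the 566 without, at 12307 against 6834 CPM, a log2 ratio of 0.85 (0.76 to 0.94). The other hypoxia genes summed to 3080 against 1652 CPM, a log2 ratio of 0.90 (0.71 to 1.08). Of their 271 UMIs in the 44 cells, 109 were *Mif*. The intervals of *Egln1*, *Higd1a*, *Mif*, *Ankrd37* and *Mxi1* lay above 0. Those of *Hif1a*, *Egln3*, *Pdk1*, *Bnip3l*, *Fam162a*, *Vegfa*, *P4ha1*, *Ddit4* and *Kdm3a* hold 0. *Ankrd37* was at 2.34 (1.18 to 3.39) and the glycolysis gene *Aldoa* at 1.09 (0.87 to 1.31). The value over all features was not computed for this split. In the obese library 6 cells with a *Bnip3* UMI stood against 302 without, with a glycolysis log2 ratio of 1.27 (1.03 to 1.49). The intervals of this split treat the UMIs of a cell as independent. They leave out the spread between so few cells and are too narrow for a comparison of the libraries. In the proliferating-like cluster the same split gave glycolysis log2 ratios of 0.36 (0.20 to 0.52) from 16 lean cells and 0.64 (0.45 to 0.81) from 13 obese cells. *Ankrd37* had 0 UMIs in these 16 lean cells, with an upper limit of 2.2 for its log2 ratio. In the 13 obese cells it had 3 UMIs and a log2 ratio of 2.70 (0.31 to 4.46). These numbers of cells and UMIs are too small to compare. This split of the cells was chosen after values were seen, and it describes cells of the same library.

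**Figure D3:**
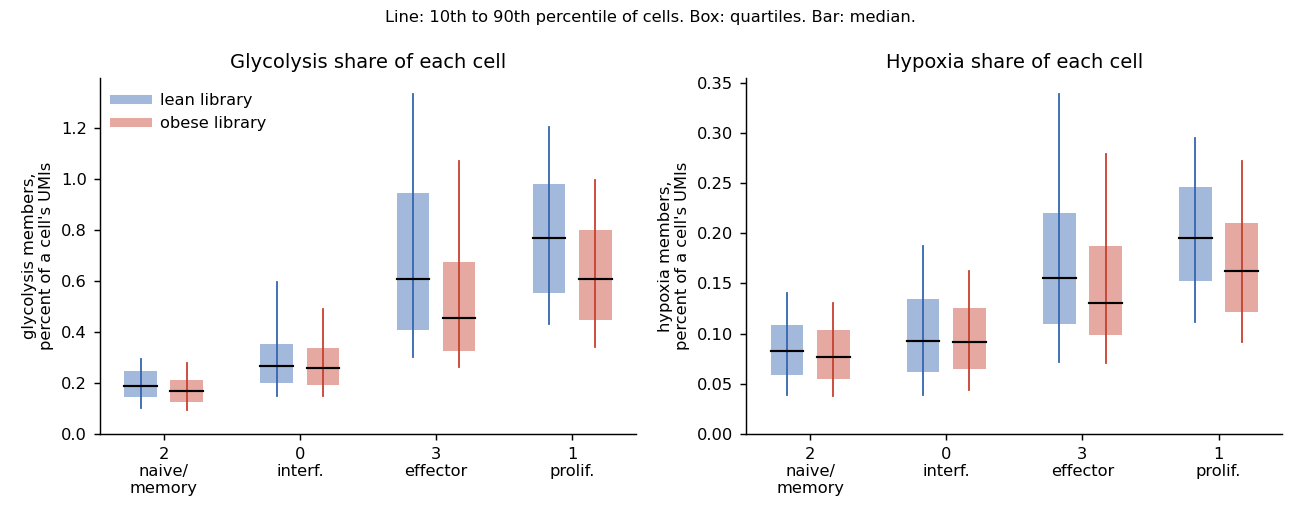
Percent of a cell's UMIs taken by glycolysis genes (left) and hypoxia genes (right) in 4 clusters of the lean and obese libraries, with the median over cells as a bar, the quartiles as a box and the 10th to 90th percentiles as a line. In the effector-like cluster the median glycolysis share was 0.608% in lean and 0.457% in obese cells, and in the proliferating-like cluster 0.770% and 0.607%.

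The spread between cells was wide beside these gaps. In the effector-like cluster, the glycolysis share of a cell ran from 0.302% at the 10th to 1.33% at the 90th percentile in the lean library, and from 0.261% to 1.07% in the obese library, so that the cells of both libraries overlapped broadly. Medians in cluster 2 were 0.188% and 0.168%, and those in cluster 0 were 0.266% and 0.259%. The hypoxia share behaved alike, with medians of 0.155% and 0.130% in the effector-like cluster.

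Shares within pairs of related genes do not depend on the library total. The *Hk2* share of hexokinase UMIs was 43.9% (42.05% to 45.8%) in the lean and 50.4% (48.6% to 52.2%) in the obese library. By cluster it was 38.6% and 51.7% in cluster 0, 41.0% and 283 of 566 UMIs in cluster 3, 46.8% and 50.7% in cluster 1, and 45.2% and 40.8% in cluster 2. The inducible hexokinase thus held more of the pair in the obese cells of clusters 0 and 3, where the intervals of the libraries lay apart, whereas they overlapped in clusters 1 and 2. The *Slc16a3* share of the 2 lactate transporters separated the states, from 4.76% and 6.82% in cluster 2 to 75.2% and 69.5% in cluster 3. In cluster 3 the intervals of the libraries overlapped (70.2% to 79.8% and 62.1% to 76.2%). The share was 68.1% (64.2% to 71.9%) and 56.0% (51.8% to 60.2%) in cluster 1. In cluster 0 it was 35.1% (20.2% to 52.5%) and 10.4% (4.59% to 19.4%), from 37 and 77 UMIs of the pair. The *Eno1* share of enolase was 70.9% to 74.0% in the 4 named clusters of the lean library and 41.3% to 50.1% in those of the obese library. This offset ran through all states alike, in a pair whose reads are nearly identical, and its source was not tested. *Slc2a3* held 72.6% and 70.9% of the glucose transporter UMIs, and the *Pfkp* share of phosphofructokinase was 80.3% in the lean and 71.6% in the obese cells of cluster 3.

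**Figure D4:**
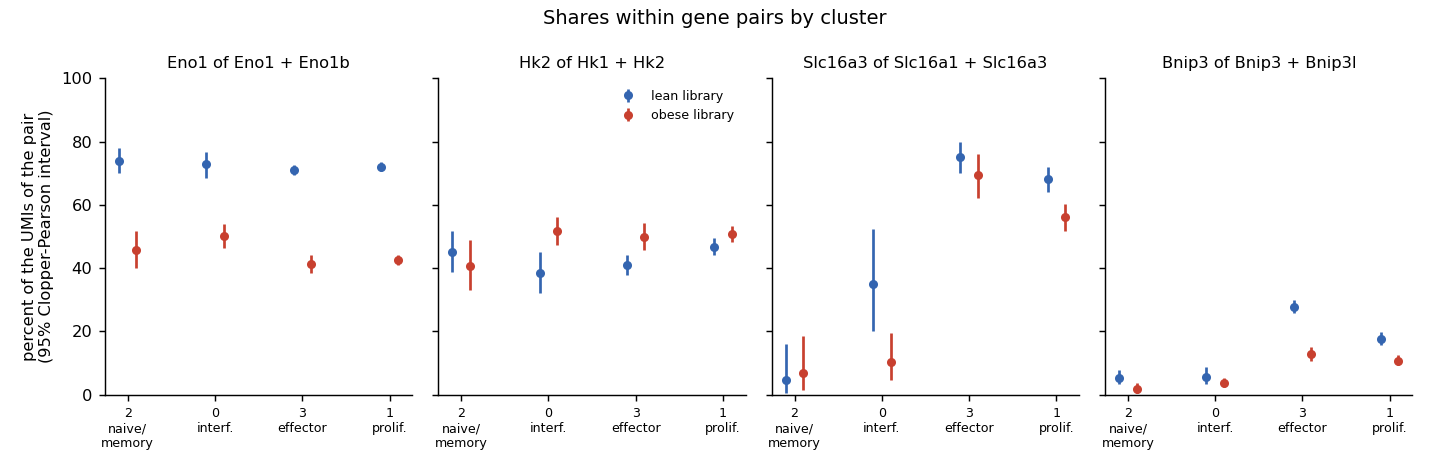
Percent of the UMIs of a gene pair that belong to the first named gene (y axis, 0 to 100) by cluster (x axis) in the lean and obese libraries, with 95% Clopper-Pearson intervals. The Eno1 share lies between 70.9% and 74.0% in the 4 named clusters of the lean library and between 41.3% and 50.1% in those of the obese library, while the Slc16a3 share differs mainly between clusters.

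The glycolysis share also differed with the depth of a cell, and the libraries were therefore compared between cells of like depth. For cells of 500 to 5000 UMIs the glycolysis share was 0.308% in the lean and 0.301% in the obese library, a log2 ratio of −0.03 (−0.09 to 0.03). For 5000 to 10000 UMIs it was 0.349% and 0.267%, and for 10000 to 20000 UMIs 0.668% and 0.465%, log2 ratios of −0.39 (−0.41 to −0.36) and −0.52 (−0.54 to −0.50). For 20000 to 50000 UMIs it was 0.924% and 0.750%, a log2 ratio of −0.30 (−0.31 to −0.29). The gap was present at matched depth in all bins but the shallowest. The bins match depth and not cell state. The bin of 10000 to 20000 UMIs held 269 lean and 162 obese cells of cluster 3, and 23 and 117 of cluster 0. Within the effector-like cluster the gap was −0.59 (−0.65 to −0.52), −0.38 (−0.41 to −0.35) and −0.34 (−0.37 to −0.32) in the upper 3 bins. For cluster 1 the same bins gave −0.17 (−0.28 to −0.06), −0.37 (−0.40 to −0.34) and −0.27 (−0.28 to −0.25). The lower 3 bins of cluster 2 gave −0.11 (−0.36 to 0.14), −0.18 (−0.24 to −0.12) and −0.29 (−0.37 to −0.21). In cluster 0 the bins gave 0.05 (−0.03 to 0.13), −0.18 (−0.23 to −0.13) and −0.54 (−0.63 to −0.44), the last from 23 lean and 117 obese cells.

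**Figure D5:**
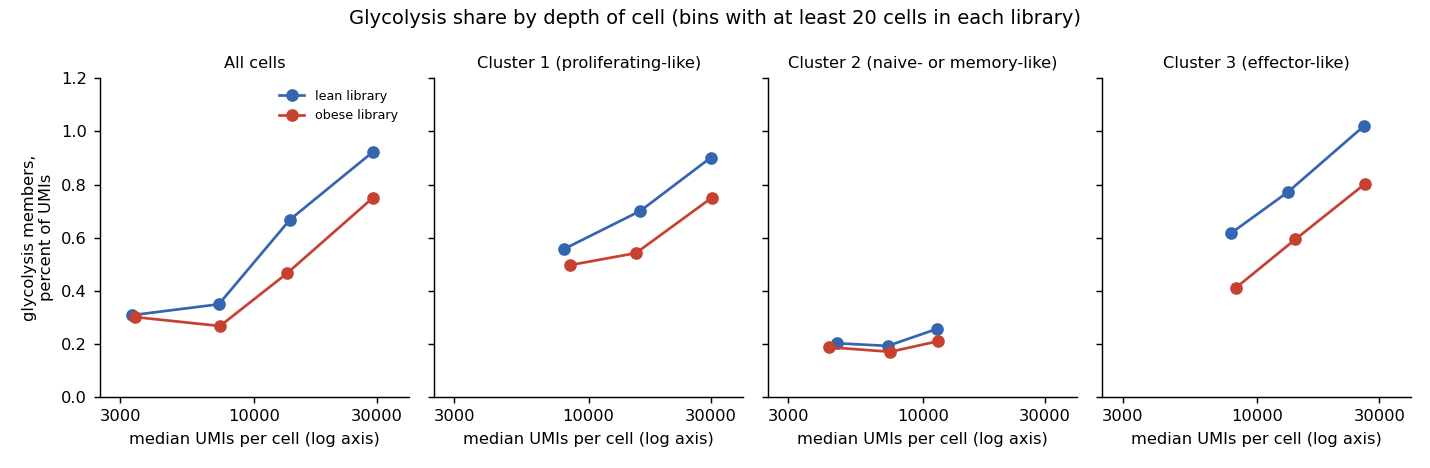
Glycolysis genes as a percent of UMIs (y axis) in bins of cells by depth, drawn at the median UMIs per cell of the bin (x axis, log scale), for all cells and for 3 clusters of the lean and obese libraries. The shares rise with depth in the proliferating-like and effector-like clusters, and in the effector-like cluster the lean points lie above the obese points in each bin.

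Genes next to these pathways were counted by the same rule, beside the 6.01% of all features that were lower and the 11.9% that were higher. With so few genes, a count of 0 is near this background. Of the 7 pentose phosphate genes, which branch off after hexokinase, 0 were lower and 1 (*Rpia*) was higher over all cells, with a median log2 ratio of 0.11. *Pgls* was at 249 and 208 CPM, *Taldo1* at 219 and 204 CPM and *Tkt* at 154 and 181 CPM. Of 13 genes for pyruvate entry into mitochondria, 8 passed 10 CPM. Of these 8, 0 were lower and 0 higher, with a median of 0.064. The pyruvate carrier genes *Mpc1* and *Mpc2* were at 118 and 118 CPM and at 117 and 122 CPM. Of 23 further glycolysis genes, 5 passed 10 CPM. Of these 5, 0 were lower and *Eno3* was higher, at 50.5 and 60.9 CPM, while *Pgm1* was at 23.3 and 21.0 CPM and *Pgam5* at 15.03 and 14.1 CPM.

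Of 8 further genes of the oxygen machinery, 5 passed 10 CPM, of which 0 were lower and 2 were higher (*Arnt* and *Siah2*), with a median log2 ratio of 0.21. Under that level, *Epas1*, which encodes HIF-2 alpha and was picked out with its values known, stood at 7.15 and 5.36 CPM, a log2 ratio of −0.42 (−0.73 to −0.10). *Siah2*, a ubiquitin ligase that acts on the prolyl hydroxylases, was at 38.7 and 53.0 CPM, *Cited2*, which competes with Hif1a for its coactivators, at 163 and 188 CPM, and *Hif1an*, the asparaginyl hydroxylase of Hif1a, at 22.0 and 25.2 CPM. Of 29 other genes known as hypoxia targets, 12 passed 10 CPM. Of these 12, 3 were lower (*Ero1l*, *Plin2* and *Hilpda*) and 3 higher (*Bhlhe40*, *Nrn1* and *Cxcr4*), with a median of −0.01. *Bhlhe40*, also induced by T cell activation, was at 302 and 430.1 CPM, and *Rbpj* at 234 and 197 CPM. The targets outside the list therefore went both ways.

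Markers of T cell state also differed between the libraries, in both directions. Here a gene was counted as higher at any fold. The share of all features higher in that sense was not computed. Their median log2 ratio of 0.035 lies above 0, so a count alone gives no direction. Beside it, the median was −0.97 for effector, 0.17 for proliferation and 0.12 for naive or memory markers. It was −0.10 for interferon-stimulated markers and 0.55 for immediate early and heat shock genes. The 12 effector markers summed to 7804 CPM in the lean and 4786 CPM in the obese library, with 1 of 12 higher in the obese library. Within the effector-like cluster itself they were at 12113 and 7191 CPM. The 12 proliferation markers were at 3038 and 3685 CPM, with 12 of 12 higher over all cells and 4 of 12 higher within cluster 1. The 10 naive or memory markers were at 1017 and 1120 CPM, with 8 of 10 higher. The 10 interferon-stimulated markers were at 813 and 691 CPM, with 4 of 10 higher. The 17 immediate early and heat shock genes, which respond to handling, were at 7012 and 8947 CPM, with 16 of 17 higher. The median mitochondrial share of a cell was 2.10% and 2.64%. Red cell markers summed to 0 CPM in the lean and 320.2 CPM in the obese library, almost all of it in cluster 4. The part of each in the values above was not tested.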

How the data were processed

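Single-cell RNA of tumor CD8+ T cells was measured with 10x Genomics 3' chemistry, 1 library from lean and 1 from obese mice. The authors aligned reads to mm10 and counted UMIs with Cell Ranger 6.0.2, per the submitters' processing notes, and deposited raw counts per gene and cell without normalization. The deposited barcodes number 2697 lean and 2623 obese, the same cell numbers that the study reports as analyzed. They include cells outside the study's own stated limits. Here only cells with under 7.5% mitochondrial UMIs and over 500 and under 50000 UMIs were kept. Doublets were not removed and no caller was run. UMIs were summed per library and cluster (Python 3.11.15, numpy 2.4.6, scipy 1.17.1, pandas 2.3.3). CPM have exact Poisson, shares Clopper-Pearson and log2 ratios exact conditional binomial intervals at 95%, for counting error only. Clusters came from Seurat 5.3.0 in R 4.3.3 (2000 variable genes without the members and without the genes of the study's heatmaps, 20 principal components, 20 neighbours, Louvain at resolution 0.15, the lowest that gave 6 clusters). Clusters were named from marker lists by their 10 leading genes of at least 50 CPM. In the alternative clusterings each name went to the cluster, above a minimum size, with the highest summed CPM of that marker list. With 1 library per group no test was run. Every member may be named, and of each neighbouring list the 3 genes with the most UMIs. The members and all lists were chosen with earlier results of these data known. All 40 member features were found in the GENCODE annotation of GRCm38. Enolase transcripts were aligned with Biopython 1.88, and motifs searched in RefSeq windows, taking the first where a gene has several. Intervals were tested only on simulated independent Poisson counts, which leave out the clumping of UMIs within cells. The alternatives were TMM scaling (edgeR 4.0.16), other totals, means over cells, thinning to 2000 or 1000 UMIs, other cell filters, levels, folds and clusterings, and equal cluster weights.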

Additional observations from a re-analysis of the deposited data

Results flagged for a closer look

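*Hk2* and *Slc2a3*, the genes of glucose entry and trapping, had ratios of opposite direction in different clusters, with counting intervals that exclude 0. The log2 ratio of *Hk2* was 0.71 (0.36 to 1.07) in the interferon-stimulated-like cluster 0, from 88 lean and 281 obese UMIs, and 0.36 (0.13 to 0.58) in the effector-like cluster 3, from 381 and 283 UMIs. In the naive- or memory-like cluster 2 it was −0.47 (−0.93 to −0.01), from 113 and 64 UMIs. *Slc2a3* was at 0.59 (0.20 to 0.99) in cluster 0, at −0.33 (−0.50 to −0.17) in the proliferating-like cluster 1 and at −0.28 (−0.47 to −0.08) in cluster 3. Both genes were picked from a scan of all 39 members and summed enolase over clusters 0 to 3. In such a scan some intervals can exclude 0 by counting error alone. The *Hk2* share of hexokinase UMIs in cluster 2 had overlapping intervals, 38.9% to 51.6% in the lean and 33.0% to 48.9% in the obese library. Whether these ratios differ between clusters was not tested, since there is 1 library per diet.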

How the results depend on the processing

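Of the recomputed medians and counts of lower members, 220 stayed within counting error or 1.5 times the count, 40 moved and 0 turned from a called direction. Of the other recomputed values, mostly single members' ratios, 335 stayed, 121 moved and 6 turned. The glycolysis median over all cells, −0.31, was −0.35 with TMM scaling, −0.24 as a mean over cells, −0.23 at 1000 UMIs per cell, −0.22 with all deposited cells and −0.19 with equal weight of the clusters. The hypoxia median, −0.23, was −0.17 as a mean over cells and −0.18 with all deposited cells. Counts of lower glycolysis and hypoxia genes, 12 and 5, were 7 and 3 with equal weights and 2 and 2 at 1.5-fold, where 1.32% of all features were lower. With at least 10 CPM in both libraries, an alternative chosen after seeing the data, 10 of 17 glycolysis entries were lower. The hypoxia count was 8 of 16 with no minimum level and 2 at 50 CPM. Shares of all features were not computed for these levels, for equal weights or for 10 CPM in both libraries. With thinning to 2000 or 1000 UMIs, the hypoxia median was −0.34 or −0.37 in the proliferating-like and 0.031 or 0.015 in the naive- or memory-like cluster. With a total that leaves out mitochondrial and ribosomal protein genes, the medians over the naive- or memory-like cluster were, for the proliferating-like cluster, 1.36 (glycolysis, lean), 0.83 (hypoxia, lean) and 0.99 (hypoxia, obese), and for the effector-like cluster 1.31 and 1.41 (glycolysis, lean and obese) and 0.87 and 0.75 (hypoxia). Thinning gave hypoxia medians for the proliferating-like cluster of 0.96 (2000 UMIs, obese), 1.57 and 1.199 (1000 UMIs, lean and obese), and for the effector-like cluster of 0.91 (1000 UMIs, obese), which was 1.42 with no minimum level. A minimum of 50 CPM gave 1.97 for glycolysis in the lean proliferating-like cluster. At resolution 0.8, with 13 clusters, the same names cover other sets of cells. There the effector-like glycolysis median was −0.09, the interferon-stimulated-like medians were −0.57 for both arms and the hypoxia median of the proliferating-like cluster −0.27. With 10 principal components the interferon-stimulated-like medians were 0.0084 (glycolysis) and 0.047 (hypoxia), with 30 the hypoxia median was 0.011, and with members kept among the variable genes the glycolysis median was 0.019. The medians over the naive- or memory-like cluster were at resolution 0.8 2.44 (glycolysis, lean), 1.42 and 1.08 (hypoxia) for the proliferating-like, and 2.26 and 2.36 (glycolysis) and 1.69 and 1.47 (hypoxia) for the effector-like cluster. Direction turned for *Mxi1* (0.0095 as a mean over cells, 0.14 at 1000 UMIs, 0.097 with equal weights), *Hk1* (0.058 at 2000 UMIs), *Slc2a1* (0.19) and *Hk2* (−0.16, both at 1000 UMIs). The cause was not tested. Thinning left out 126 lean and 112 obese cells at 2000 UMIs, and 54 and 68 at 1000 UMIs. Depth limits *Pfkm*, *Pfkfb4*, *Ldhb*, *Egln3*, *Ak4* and *Vegfa*, with under 10 CPM. No paired analysis was possible because each diet has 1 library.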

Other observations

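The cells outside the filters, which enter above only where all deposited cells were used, held 83 lean and 121 obese cells of at least 50000 UMIs, and 158 and 213 cells with at least 7.5% mitochondrial UMIs. In the very deep cells the glycolysis genes took 0.985% of the UMIs in the lean and 0.861% in the obese library, a log2 ratio of −0.19 (−0.21 to −0.18), and the hypoxia genes had a log2 ratio of −0.04 (−0.08 to −0.01). In the cells rich in mitochondrial RNA the glycolysis shares were 0.382% and 0.339%, a log2 ratio of −0.17 (−0.27 to −0.07), and the hypoxia genes had a log2 ratio of −0.25 (−0.46 to −0.03).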
